A study of Homo sapiens with 6 samples.

Results

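RNA polymerase I (Pol I) and ribosome biogenesis genes were followed in MDA-MB-231 cells treated with nitidine chloride. The set held 49 genes, chosen by name for a known role in Pol I transcription or pre-rRNA processing, among 63241 gene identifiers in the count files. MDA-MB-231 is an established human triple-negative breast cancer cell line, and nitidine chloride (NCD) is a plant alkaloid of Zanthoxylum nitidum. Wild-type cells received 5 μM NCD or the vehicle, 0.1% dimethyl sulfoxide (DMSO), for 24 h, and 3 libraries of total RNA were made for each of the 2 groups. The free-text notes of NCD replicates 2 and 3 name other cell line numbers, while their cell line field gives MDA-MB-231. The labels do not say that replicates came from separate cultures, so p-values measure the spread between these libraries. The study covers 1 cell line at 1 dose and 1 time.

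Ribosome production starts in the nucleolus, where Pol I, brought to the rDNA promoter by UBTF, SL1 and RRN3, transcribes a long rRNA precursor. Small nucleolar ribonucleoproteins (snoRNPs) then modify this precursor and guide its cleavage, while large sets of assembly factors fold it into the small and the large ribosomal subunit. Cancer cells commonly run this pathway at a high rate, and many of its genes carry binding sites for MYC.

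The libraries held 18223594 to 19410833 expected counts with DMSO and 18232169 to 21629653 with NCD. Values are given as CPM, counts relative to the library size, which was scaled by edgeR's TMM method. Differences are log2 fold changes of NCD over DMSO with a standard error (SE), tested across 15295 genes with edgeR's quasi-likelihood test and Benjamini-Hochberg adjustment. A gene passed the test at an adjusted p below 0.05, and the study's fold threshold, an absolute log2 fold change above 1, was counted as well. TMM factors spanned 0.911 to 0.949 in the DMSO group and 1.059 to 1.092 in the NCD group. These are relative levels in bulk RNA, so fewer cells expressing a gene and less of its RNA per cell cannot be told apart. Of 5 markers expected in MDA-MB-231 cells, VIM, CD44, AXL, CAV1 and LGALS1, each had at least 5039 counts in every library. All 5 were lower with NCD, CD44 by a log2 fold change of -1.82, AXL by -1.10 and CAV1 by -0.83. Of 5 markers expected at or near 0, ESR1, PGR and CDH1 had at most 7 counts, but EPCAM had 45 to 93 and GATA3 98 to 166. EPCAM was higher with NCD (log2 fold change 0.57, edgeR adjusted p = 0.00998). The part of these markers in the members' changes was not tested. The 6 markers of blood, endothelial and liver cells together held 9 to 25 counts per library.

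All 49 members passed the filter on low counts. With NCD 20 members were lower (40.8%, against 34.1% of all tested genes) and 7 were higher (14.3%, against 35.3%), while 22 did not pass the test. The changed members therefore made up 55.1% of the set, compared with 69.3% of all tested genes. Past the fold threshold lay 5 falls, those of DDX10, WDR43, UTP20, HEATR1 and GNL2 (17.5% of all tested genes were lower by this rule). GNL2 lay inside the threshold with library totals (-0.845), where 4 falls remained past it, and without DMSO replicate 2 (-0.984). Without DMSO replicate 2 the falls past the threshold were still 5, as another member took the place of GNL2. They were 6 without DMSO replicate 1 and 6 without DMSO replicate 3. Without NCD replicate 3 the falls past the threshold were 7, with POLR1A and TAF1B added. There were 0 rises past the threshold (13.5% of all tested genes were higher). The highest log2 fold change of any member was 0.69, and DESeq2 and limma-voom also placed 0 rises beyond that threshold. The median log2 fold change of the members was -0.16, against 0.04 for all tested genes. Scaling by library totals instead of TMM raised the median of all tested genes to 0.23 and that of the members to 0.03, and 17 members were then higher and 16 lower. Of all tested genes past the test and the fold threshold 56.1% were then higher, against 43.6% with TMM. The counts of 17 and 16 members are by the test alone, so these shares are not a like measure for them. A change of scaling moves all genes by nearly the same amount. The gap between the members and all tested genes, -0.20 with either scaling, was therefore fixed in advance.

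**Figure D1:**
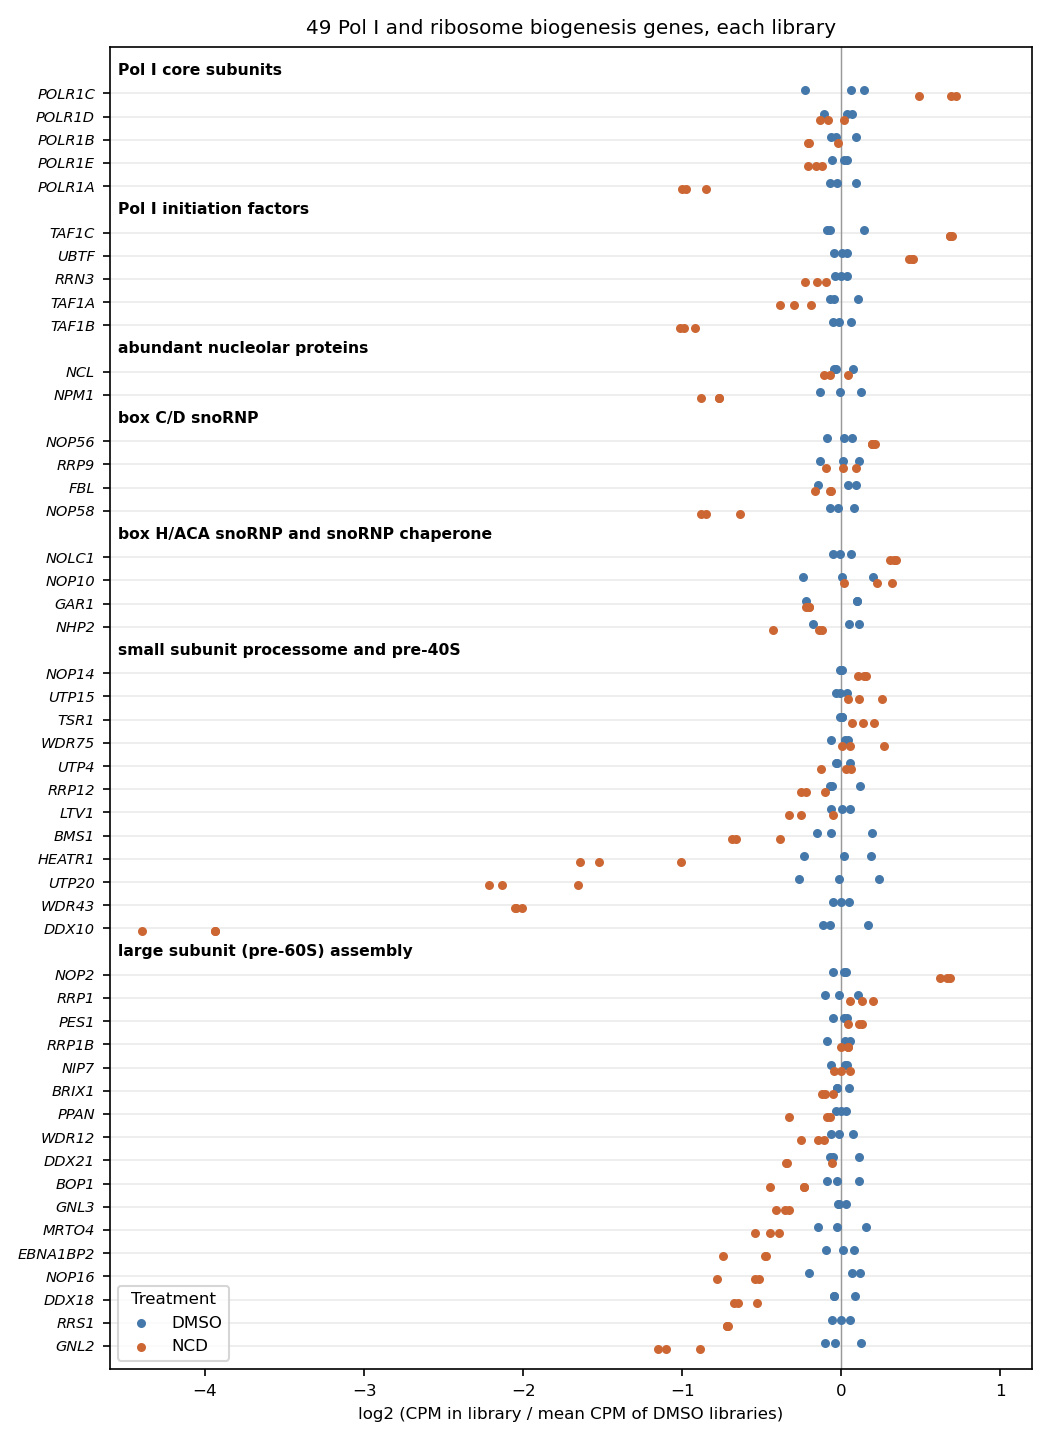
CPM of each of the 49 genes in each library, as the log2 ratio to the mean of the DMSO libraries (x axis), with genes grouped by role (y axis), DMSO libraries in blue and NCD libraries in orange. DDX10, WDR43, UTP20 and HEATR1 lie far to the left in all 3 NCD libraries, and POLR1C, TAF1C, UBTF and NOP2 lie to the right of every DMSO library.

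Promoter sequence was not used to choose the members. The E-box CACGTG, a palindrome that reads the same on both strands and that MYC with MAX and related factors can bind, was sought in RefSeq promoters (GRCh38.p14) from 250 bases before to 50 bases after the transcript start. It occurred in 16 of the 41 members with a promoter in the table (39.0%), against 12.3% of tested genes and 8.8% of all genes with such a promoter. Both directions of change were represented, with the E-box in 7 of 16 lower members, 2 of 6 higher members and 7 of 19 members that did not pass the test. MYC mRNA itself had 132, 132 and 126 CPM with DMSO and 69.2, 74.3 and 66.6 with NCD (log2 fold change -0.89, SE 0.06, edgeR adjusted p = 2.2e-06). The part of MYC in the members' changes was not tested. The 6 sites printed here come from members that fell and members that rose, so that both can be read side by side. Capitals mark the E-box, read in the direction of transcription.
WDR43: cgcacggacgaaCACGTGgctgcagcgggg
UTP20: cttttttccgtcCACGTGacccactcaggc
GNL2: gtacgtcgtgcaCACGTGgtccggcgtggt
MRTO4: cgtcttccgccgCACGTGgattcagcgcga
NOP2: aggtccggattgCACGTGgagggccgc
NOP14: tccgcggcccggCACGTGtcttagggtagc
The window of WDR43 lies at chr2:28894658-28894687 on the plus strand, that of UTP20 at chr12:101280083-101280112 on the plus strand and that of GNL2 at chr1:37595917-37595946 on the minus strand. The window of MRTO4 lies at chr1:19251807-19251836 on the plus strand, that of NOP2 at chr12:6568242-6568268 on the minus strand, where the promoter window ends early, and that of NOP14 at chr4:2963374-2963403 on the minus strand. In WDR43 and GNL2 the E-box begins at base 4 of the transcript, and in UTP20 10 bases before its start. WDR43, UTP20, GNL2 and MRTO4 fell, while NOP2 and NOP14 rose. The rise of NOP14 was small (log2 fold change 0.14), and its call was lost without any 1 of the 6 libraries. DDX10, the member with the largest change, has no CACGTG in its window.

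The core subunits of Pol I did not move together. POLR1A, the largest catalytic subunit (chromosome 2, 86020216 to 86106155, minus strand, GENCODE 29 on GRCh38), had 100.2, 113 and 103 CPM with DMSO and 52.8, 53.6 and 58.5 with NCD. Every NCD library lay below every DMSO library, and the mRNA fell to 52.1% of its DMSO level (log2 fold change -0.94, SE 0.07, edgeR adjusted p = 3.75e-06). POLR1C, which pairs with POLR1D in both Pol I and Pol III, had 44.5, 36.4 and 47.1 CPM with DMSO and 69.0, 70.4 and 59.9 with NCD. It rose 1.56-fold without overlap of the groups (log2 fold change 0.64, SE 0.11, edgeR adjusted p = 0.000621). YIPF3 overlaps POLR1C on the other strand with up to 2661 counts, and without a stated strand setting reads of the pair cannot be told apart. POLR1D itself had 62.0, 56.2 and 63.3 CPM with DMSO and 61.3, 57.1 and 55.2 with NCD. The groups overlapped, and the log2 fold change was -0.06 (95% interval -0.23 to 0.11).
POLR1B, which forms the active site with POLR1A, had 56.9, 62.1 and 55.6 CPM with DMSO and 50.3, 50.6 and 57.4 with NCD, again with overlap. The difference did not pass the test (log2 fold change -0.14, 95% interval -0.32 to 0.04, edgeR adjusted p = 0.143). POLR1E, a subunit found in Pol I but not in Pol II, ranged from 52.3 to 55.8 CPM with DMSO, and its mean with NCD was 48.6. Its groups did not overlap, but the log2 fold change of -0.16 narrowly missed the threshold (SE 0.07, edgeR adjusted p = 0.0513).

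The initiation factors also split in direction. UBTF, the architectural protein that coats active rDNA (chromosome 17, 44205033 to 44221626, minus strand), had 85.8, 87.9 and 83.0 CPM with DMSO and 116, 117 and 115 with NCD. The rise was 1.36-fold and far exceeded the spread within either group (log2 fold change 0.44, SE 0.05, edgeR adjusted p = 8.76e-05). RRN3, which links Pol I to the promoter complex, averaged 50.3 ± 1.29 CPM in DMSO and 45.1 ± 2.01 in NCD libraries (SD, n = 3 each), and its log2 fold change of -0.16 did not pass the test (SE 0.07, edgeR adjusted p = 0.0646). Its 5 annotated pseudogenes held up to 51.6 counts in a library, and PDXDC1, which overlaps it on the other strand, up to 986.
TAF1A, TAF1B and TAF1C are subunits of SL1, the complex that places TBP on the rDNA promoter. TAF1C had 22.1, 25.9 and 22.3 CPM with DMSO and 38.1, 37.7 and 37.7 with NCD, a rise of 1.61-fold (log2 fold change 0.69, SE 0.08, edgeR adjusted p = 7.62e-05). TAF1B moved the other way, from 67.4, 62.5 and 64.0 CPM to 32.6, 32.0 and 34.2 (log2 fold change -0.97, SE 0.07, edgeR adjusted p = 2.17e-06). Neither gene's groups overlapped. TAF1A fell by less, from a mean of 28.1 ± 1.91 CPM to 23.0 ± 1.57 (SD, n = 3 each; log2 fold change -0.29, SE 0.09, edgeR adjusted p = 0.0163). That call was lost without DMSO replicate 2 (adjusted p = 0.0509) or NCD replicate 2 (adjusted p = 0.0682), and with library totals (log2 fold change -0.09, adjusted p = 0.414).

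NPM1 and NCL are the abundant chaperones of the nucleolus. NPM1 (chromosome 5, 171387116 to 171411137, plus strand) had 3334, 2785 and 3034 CPM with DMSO and 1790.1, 1789.9 and 1655 with NCD. It fell to 57.2% of its DMSO level, with no overlap (log2 fold change -0.81, SE 0.08, edgeR adjusted p = 2.84e-05). Its 49 annotated pseudogenes together held at most 258 counts in a library. NCL had 1207, 1298 and 1197 CPM in DMSO and 1177, 1144 and 1272 in NCD. Its groups overlapped and it did not pass the test (log2 fold change -0.04, 95% interval -0.20 to 0.11).
Because NPM1 and NCL held 42.8% to 44.8% of all member counts with DMSO and 37.2% to 37.7% with NCD, they weigh heavily in any sum. All members together made up 0.905% to 0.924% of the library totals with DMSO and 0.828% to 0.858% with NCD. Without NPM1 the same share was 0.620% to 0.641% with DMSO and 0.638% to 0.677% with NCD, and the groups overlapped. Per kilobase of annotated exon, NPM1 had the highest level of the set in DMSO (797 CPM per kb), followed by NOP10 (297) and NCL (178), and TAF1C had the lowest (4.20).

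**Figure D2:**
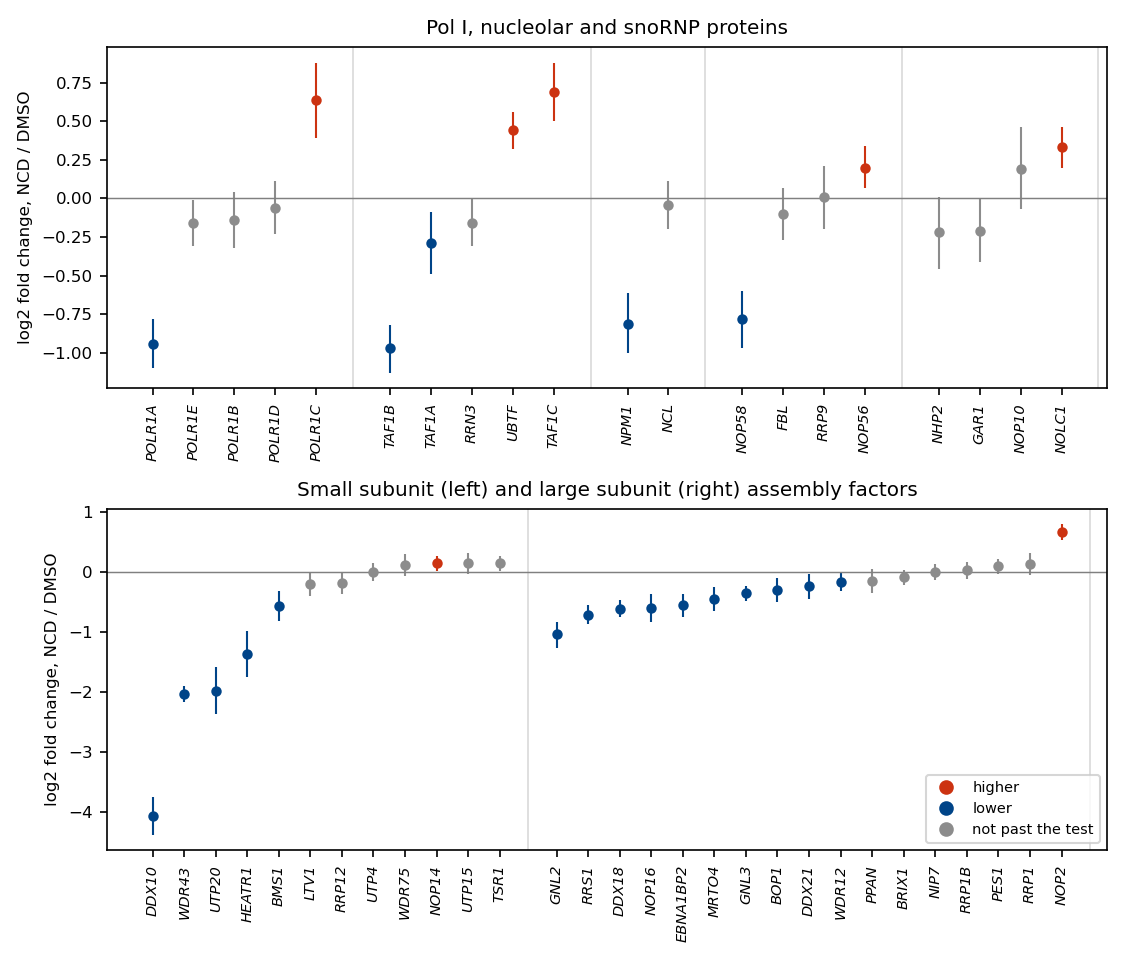
Log2 fold change of NCD over DMSO for each member (points) with its 95% interval (bars), in the order of roles, with a wider scale in the lower panel. Red and blue points passed the test; within the Pol I, initiation factor and box C/D groups of the upper panel both colours occur, and the lower panel reaches -4.07 at DDX10.

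The snoRNP proteins showed small changes apart from NOP58. FBL, the methyltransferase of box C/D snoRNPs, had 358, 304 and 346 CPM with DMSO and 321, 319 and 299 with NCD, and did not pass the test (log2 fold change -0.10, 95% interval -0.27 to 0.07). NOP56 and NOP58 are related core proteins of the same particle. NOP58 fell from 130.4, 140.0 and 126 CPM to 71.8, 73.3 and 84.9, with no overlap between groups (log2 fold change -0.78, SE 0.08, edgeR adjusted p = 2.31e-05). NOP56 was higher with NCD, at 342, 347 and 342 CPM against 303, 280.4 and 313 (log2 fold change 0.20, SE 0.06, edgeR adjusted p = 0.0134). Its call was lost without DMSO replicate 1 (adjusted p = 0.0504), NCD replicate 1 (adjusted p = 0.0711) or NCD replicate 2 (adjusted p = 0.0509). RRP9, a protein of the snoRNP that directs early pre-rRNA cleavage, averaged 31.7 ± 2.67 CPM in DMSO and 31.8 ± 2.07 in NCD libraries (SD, n = 3 each; log2 fold change 0.01, 95% interval -0.20 to 0.21).
The box H/ACA proteins NHP2, NOP10 and GAR1, which act in pseudouridylation, had log2 fold changes of -0.22, 0.19 and -0.21, and none of the 3 passed the test. NHP2, the most negative of them, had 129.7, 106 and 125 CPM with DMSO and 109, 110.3 and 89.3 with NCD, and the groups overlapped (SE 0.10, edgeR adjusted p = 0.0806). NOLC1, a chaperone of both snoRNP classes, rose from 383, 402 and 371 CPM to 485, 477 and 489.5 (log2 fold change 0.33, SE 0.06, edgeR adjusted p = 0.000688). Scaled to the ribosomal protein genes, its adjusted p was 0.0798.

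Factors of the small subunit processome held the largest falls of the set. DDX10, an RNA helicase of pre-rRNA processing (chromosome 11, 108665025 to 108940930, plus strand), had 54.4, 66.1 and 56.0 CPM with DMSO and 3.85, 2.79 and 3.83 with NCD. These NCD values correspond to 54 to 88 counts per library, and the mRNA was 16.8-fold lower (log2 fold change -4.07, SE 0.14, edgeR adjusted p = 3.69e-08). WDR43, of the UTP-A complex that binds the nascent pre-rRNA (chromosome 2, 28894643 to 28948222, plus strand), fell from 161, 156 and 151 CPM to 38.8, 37.7 and 37.8. This was 4.10-fold, with narrow spread in both groups (log2 fold change -2.03, SE 0.06, edgeR adjusted p = 2.08e-08). UTP20, a large scaffold protein (chromosome 12, 101280109 to 101386616, plus strand), fell from 57.9, 82.0 and 69.1 CPM to 15.9, 15.0 and 22.1 (log2 fold change -1.98, SE 0.17, edgeR adjusted p = 7.72e-06). HEATR1, another UTP-A protein that is needed for Pol I transcription (chromosome 1, 236549005 to 236604504, minus strand), had 63.6, 85.1 and 75.6 CPM with DMSO and 26.0, 24.0 and 37.3 with NCD (log2 fold change -1.36, SE 0.17, edgeR adjusted p = 8.76e-05). LGALS8 overlaps it on the other strand with up to 3137 counts. Within groups UTP20, HEATR1 and BMS1 ranked the libraries alike at the top. NCD replicate 3 was the highest NCD library for all 3 genes, and DMSO replicate 2 the highest DMSO library. This ranking was not particular to the processome: members of other roles, among them POLR1A, NCL and NOP58, also peaked in these libraries. Others, among them NPM1, FBL and NHP2, were lowest in both. Without NCD replicate 3 or any other library, the log2 fold change of UTP20 stayed between -2.19 and -1.85 and that of HEATR1 between -1.60 and -1.24.
The other UTP-A proteins of the set, UTP4, UTP15 and WDR75, had log2 fold changes of -0.01, 0.14 and 0.11, and none passed the test. UTP4, with 3356 to 4637 counts, overlaps SNTB2 on the same strand (up to 1667 counts) and CHTF8 on the other (up to 2745), so its value is uncertain. BMS1, a GTPase of the processome, fell to 67.2% of its DMSO level (log2 fold change -0.57, SE 0.11, edgeR adjusted p = 0.00136), and its 22 annotated pseudogenes held up to 404 counts per library. NOP14 had the only rise that passed the test, from 109, 108 and 109 CPM to 121, 117 and 119.9 (log2 fold change 0.14, SE 0.05, edgeR adjusted p = 0.0423). This call was lost without any 1 of the 6 libraries, with adjusted p from 0.0845 without NCD replicate 2 to 0.229 without NCD replicate 1. NOP14-AS1 overlaps NOP14 on the other strand with up to 581 counts. ANKRA2 overlaps UTP15 on the other strand with up to 485 counts. UTP15 had 40.8, 42.1 and 40.2 CPM with DMSO and 42.2, 44.3 and 49.1 with NCD. The groups were apart by a small margin (SE 0.08, edgeR adjusted p = 0.136). TSR1, also at 0.14, narrowly missed the threshold (SE 0.06, edgeR adjusted p = 0.0547). It acts on late particles of the small subunit, as do LTV1 (log2 fold change -0.20) and the export factor RRP12 (-0.19), which also did not pass.

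Among the 17 factors of the large subunit 10 fell (58.8%), 1 rose (5.88%) and 6 did not pass the test. Of all tested genes 34.1% were lower and 35.3% higher. Of the 50 large subunit factors outside the set, taken up below, 38.0% were lower and 30.0% higher. GNL2, a nucleolar GTPase (chromosome 1, 37566816 to 37595935, minus strand), fell most, from 58.4, 65.4 and 55.8 CPM to 26.9, 27.9 and 32.3 (log2 fold change -1.04, SE 0.10, edgeR adjusted p = 1.2e-05). GNL3 (nucleostemin), a relative of GNL2, fell by less, from a mean of 174 ± 3.12 CPM to 135 ± 3.91 (SD, n = 3 each), a log2 fold change of -0.36. PBRM1 overlaps GNL3 on the other strand with up to 2052 counts. RRS1, encoded by a short gene without introns, was among the clearest falls, with 58.6, 54.1 and 56.2 CPM in DMSO and 34.4, 34.3 and 34.3 in NCD (log2 fold change -0.72, SE 0.07, edgeR adjusted p = 1.26e-05). The helicase DDX18 and the assembly factors NOP16, EBNA1BP2 and MRTO4 had log2 fold changes of -0.62, -0.61, -0.56 and -0.46, all past the test and without overlap of the groups. HIGD2A overlaps NOP16 on the other strand with up to 2105 counts, and EMC1 likewise overlaps MRTO4 with up to 1428.
NOP2, an rRNA cytosine methyltransferase (chromosome 12, 6556863 to 6568691, minus strand), was the 1 rise, from 75.8, 72.3 and 76.7 CPM to 120.2, 115 and 119 (log2 fold change 0.66, SE 0.06, edgeR adjusted p = 7.98e-06). An unnamed gene that overlaps it on the same strand had up to 372 counts. PES1, BOP1 and WDR12 form the PeBoW complex, which acts in large subunit maturation. BOP1 fell from a mean of 52.2 ± 3.75 CPM to 42.4 ± 3.50 (SD, n = 3 each; log2 fold change -0.30, SE 0.09, edgeR adjusted p = 0.0128), a call lost with library totals (adjusted p = 0.253). WDR12 had -0.17 and passed only narrowly (edgeR adjusted p = 0.0469), and its call was lost without DMSO replicate 1, DMSO replicate 2, NCD replicate 1 or NCD replicate 2 (adjusted p up to 0.197). PES1 had a log2 fold change of 0.09 (95% interval -0.03 to 0.22). The helicase DDX21, which acts in Pol I transcription and processing, had -0.24 with overlapping groups (edgeR adjusted p = 0.0409), a call that needed DMSO replicate 2 and NCD replicates 1 and 2, since leaving out any of these gave an adjusted p of up to 0.144. With library totals its log2 fold change was -0.045 (adjusted p = 0.706). RRP1, RRP1B, NIP7, BRIX1 and PPAN had log2 fold changes from -0.16 to 0.13 and did not pass. RAD1 overlaps BRIX1 on the other strand with up to 2379 counts, and COG8 likewise overlaps NIP7 with up to 1093. PPAN shares its locus and strand with P2RY11, which had up to 187 counts.

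Ratios of partner genes were taken within each library, since they do not depend on scaling; the pairs were picked after their values were seen and were not tested. Gene length cancels in the difference between groups. The log2 ratio of TAF1C to TAF1B counts was -1.61, -1.27 and -1.52 with DMSO and 0.22, 0.24 and 0.14 with NCD. For POLR1C to POLR1A it went from -1.31 ± 0.28 to 0.27 ± 0.21 (SD, n = 3 each). For NOP56 to NOP58 the mean log2 ratio was 1.18 ± 0.16 with DMSO and 2.17 ± 0.14 (SD, n = 3 each) with NCD. Within the UTP-A complex WDR75 to WDR43 went from -0.73 ± 0.02 to 1.41 ± 0.16 (SD, n = 3 each), and UTP15 to HEATR1 from -0.86 ± 0.19 to 0.66 ± 0.25 (SD, n = 3 each). The ratio of PES1 to BOP1 moved least, by 0.40. In each of these pairs the libraries of the groups did not overlap.

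**Figure D3:**
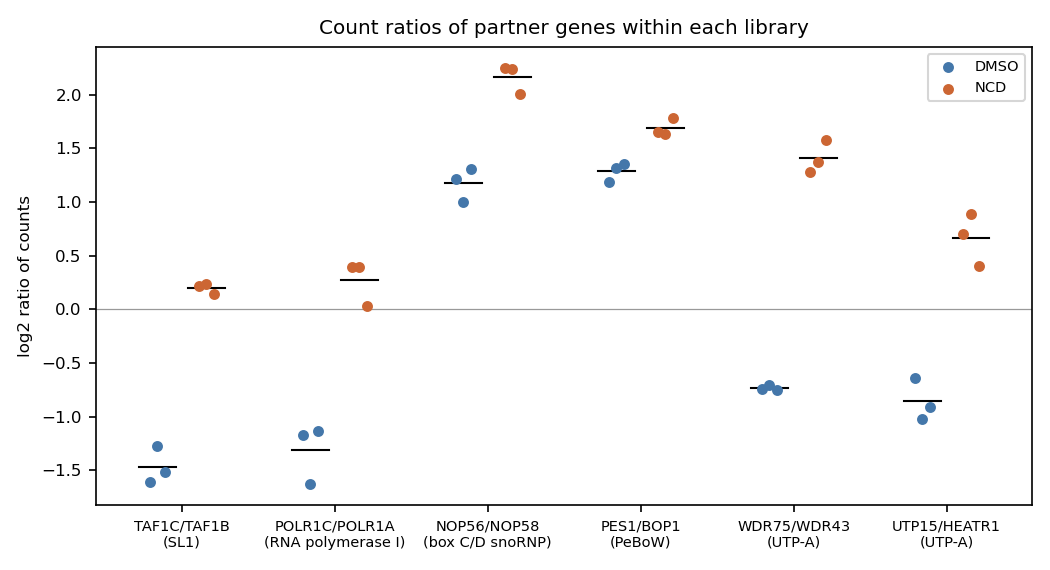
Log2 ratio of the counts of partner genes (y axis) in each DMSO library (blue) and NCD library (orange), with the group mean as a black line, for 6 pairs named by complex. The groups are apart in every pair, by 2.14 on the log2 scale for WDR75 to WDR43 and by 0.40 for PES1 to BOP1.

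Gene span varied widely within the set, from 1.4 kb for NOP10 to 275.9 kb for DDX10 in RefSeq. All 7 members of at least 50 kb fell: POLR1A, TAF1B, WDR43, UTP20, HEATR1, DDX10 and BMS1. Of the 42 shorter members 13 fell and 7 rose. Long genes were lower with NCD across the whole table, where 52.8% of tested genes of 50 to 100 kb and 85.1% of those over 100 kb fell, with median log2 fold changes of -0.36 and -1.55. The 5 members of 50 to 100 kb had a median of -0.97, and the 2 over 100 kb had -1.98 and -4.07. In the classes below 50 kb the members also lay below the table: the 24 members under 20 kb had a median of -0.07 (5 higher, 6 lower) against 0.38 for all 5441 tested genes of that span, of which 52.9% were higher and 13.8% lower. The 18 members of 20 to 50 kb had a median of -0.16 (2 higher, 7 lower) against 0.18, with 43.4% of all tested genes of that span higher and 24.3% lower. Pathway genes outside the set, taken up below, also lay below the table, with medians of 0.13 under 20 kb and -0.10 at 20 to 50 kb. Members were more abundant than the table, with a median of 84.2 CPM in DMSO against 19.4. Across the 49 members Spearman's rho of span and log2 fold change was -0.36, against -0.54 across 13871 tested genes with a RefSeq span; genes share libraries and are not independent, and the part of span in the members' changes was not tested. With GENCODE 29 gene ends, which join distant exons to some genes, 9 of the 13 members over 50 kb fell and 1, POLR1C, rose. By these ends 62.5% of the 8 members of 50 to 100 kb and 80.0% of the 5 over 100 kb fell. Of all tested genes of these spans 49.7% and 82.6% fell.

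**Figure D4:**
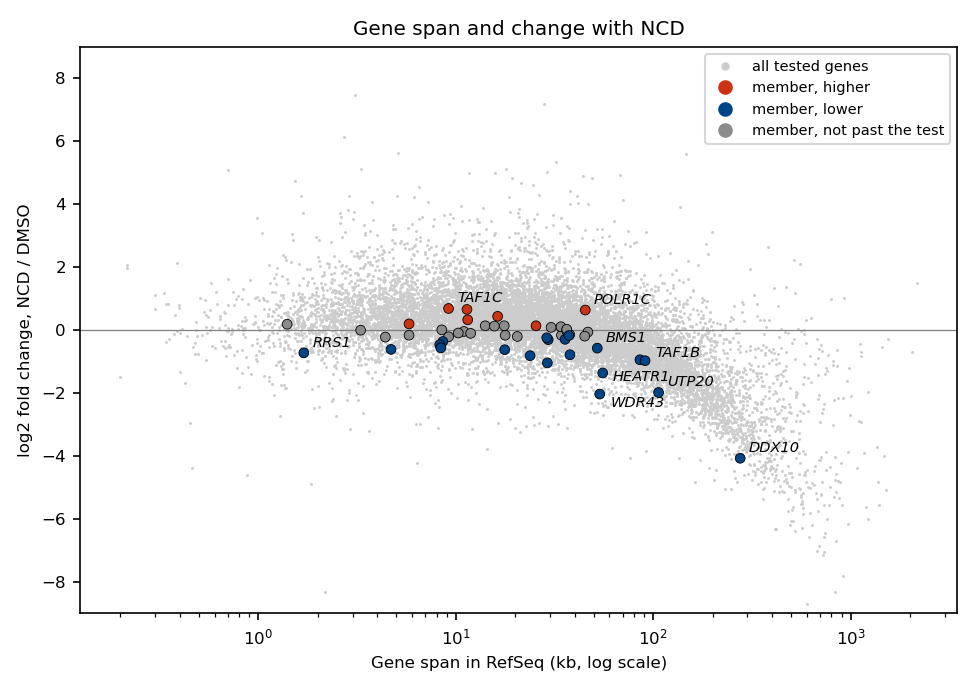
Gene span in RefSeq (x axis, log scale) and log2 fold change of NCD over DMSO (y axis) for all tested genes (small grey points) and the 49 members (large points, coloured by call). The 7 members of at least 50 kb are all blue, while RRS1, at 1.7 kb, fell as well.

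Some members carry snoRNA genes in their introns. GENCODE 29 places 26 snoRNA genes inside 8 members, of which POLR1C and NOP56 rose, NOP58, WDR43 and GNL3 fell, and NCL, TSR1 and PPAN did not pass the test. These snoRNAs together had at most 1.48 counts in any library for any host, so their levels could not be compared. The rRNA made by Pol I could not be followed either, since 4 of its 14 identifiers had a count and the highest was 2.75.

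Another 142 genes of the pathway, from lists written by hand, were all tested. Of these 38 rose (26.8%) and 54 fell (38.0%), with a median log2 fold change of -0.03; of all tested genes 35.3% were higher and 34.1% lower. With library totals the larger count turned, to 65 higher and 39 lower. That scaling also raised the median of all tested genes to 0.23. Of all tested genes past the test and the fold threshold 56.1% were then higher, against 43.6% with TMM. The counts of 65 and 39 are by the test alone, so these shares are not a like measure for them. The list of Pol I machinery and rDNA regulators had 6 higher and 5 lower of 20, the snoRNP factors 2 and 6 of 11, the small subunit factors 10 and 17 of 43, the large subunit factors 15 and 19 of 50, and the exosome and pre-rRNA nucleases 5 and 7 of 18. Past the fold threshold were 13 falls and 1 rise, that of DDX51, among the 142 genes. Of all tested genes 17.5% were lower and 13.5% higher by this rule. The largest falls were those of SPATA5, an ATPase that recycles large subunit factors (log2 fold change -4.16, SE 0.14, span 396.4 kb), MDN1, a giant remodelling ATPase (-2.48, SE 0.18, 177.3 kb), and NOL10, of the small subunit processome (-1.90, SE 0.07, 119.2 kb). DDX51 lay just inside the threshold with DESeq2 (0.993), with a minimum of 10 counts per library (0.996), and when any of DMSO replicate 3 (0.945), NCD replicate 1 (0.989) and NCD replicate 3 (0.996) was left out. The largest rises were those of the helicase DDX51 (1.01, SE 0.07, 7.7 kb), AFG2B, a partner of SPATA5 listed as SPATA5L1 (0.96, SE 0.09, 19.1 kb), and RSL24D1, a large subunit factor (0.94, SE 0.07, 16.1 kb). SPATA5 had 30.5, 32.8 and 32.0 CPM with DMSO and 2.10, 1.40 and 1.77 with NCD, whereas AFG2B had 14.3, 12.6 and 12.4 and then 24.2, 26.2 and 25.8.
Ribosomal proteins are the components that these factors assemble with rRNA. Of 77 cytosolic ribosomal protein genes 4 rose (5.19%) and 3 fell (3.90%), and 70 did not pass the test, with a median log2 fold change of 0.02. Their summed share varied between replicates, from 6.71% to 8.46% of library totals with DMSO and from 7.93% to 9.37% with NCD. Of 78 mitochondrial ribosomal protein genes 23 rose (29.5%) and 21 fell (26.9%), with a median of 0.07. The differences between these lists and the members were not tested.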

How the data were processed

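The authors aligned reads to the human genome (GRCh38 in the submitters' processing notes) with HISAT2 and deposited expected counts per Ensembl gene from RSEM, unnormalized, 1 file per library. Versions, annotation release and strand setting are not given in the sources used here. In each file 25 lines held stray text and were skipped. Symbols were found for 62666 of 63241 identifiers, and all 49 members matched. Coordinates came from GENCODE 29, which holds at least 99.44% of each library's counts, and spans from RefSeq (GRCh38.p14).

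Expected counts were rounded and tested with edgeR 4.0.16 (filterByExpr, TMM, glmQLFit, glmQLFTest) in R 4.3.3. The SE was derived from the F statistic (size of the log2 fold change over root F). Replicates of a group differed by more than sampling noise (chi-square per degree of freedom of at least 2.05). Between libraries of the same replicate number the correlations of deviations were 0.216, -0.185 and 0.023. These values cannot settle whether the libraries were paired, and the reported fit used no pairing.

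Members and lists were chosen with earlier results of these data known, so no test was made over them. Full values are given for Pol I, initiation, NPM1, NCL, FBL, NOP56 and NOP58, and for the most positive and the most negative log2 fold change of each other role. They are also given for 3 rises and 3 falls of the other pathway genes whose mean reached 5 CPM. Further members, and MYC, were named after their values were seen. Alternatives were DESeq2 1.42.0, limma-voom (limma 3.58.1), scaling by library totals or ribosomal protein genes, another filter (none, or a minimum of 10 counts per library), a block for replicate number, and leaving out single libraries.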

Additional observations from a re-analysis of the deposited data

How the results depend on the processing

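Of the 27 members past the test, 20 kept their direction and call under every alternative run. The exceptions were TAF1A, NOP56, NOLC1, NOP14, BOP1, WDR12 and DDX21. Scaling mattered most. With library totals 17 members and 65 other pathway genes were higher by the test alone, and the median of the members was 0.03. This scaling moved the median of all tested genes to 0.23, and 56.1% of genes past both thresholds were then higher, against 43.6% with TMM. It turned the sign of BRIX1 (0.106), FBL (0.098), NCL (0.154), POLR1B (0.056), POLR1D (0.133), POLR1E (0.035), PPAN (0.039), RRN3 (0.040), RRP12 (0.004), UTP4 (0.188, adjusted p = 0.0135 from edgeR) and WDR12 (0.031). With ribosomal protein genes as the reference 4 members were higher (UBTF, POLR1C, TAF1C and NOP2), and all 7 exceptions lost their calls with nearly the same fold changes (BOP1 -0.307 against -0.301, DDX21 -0.245 against -0.243, NOLC1 0.320 against 0.329). That reference itself varied between replicates, at 8.46%, 6.71% and 7.92% of library totals with DMSO and 9.16%, 9.37% and 7.93% with NCD. POLR1A kept its call, but its edgeR adjusted p went from 3.75e-06 to 0.00234 at -0.95 against -0.94. Against the TMM-scaled library size the members' share was 0.194 percentage points lower with NCD (-0.194), against -0.0737 by library totals.

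NIP7 and RRP9 lay near 0 and turned sign, to -0.016 and -0.014 with DESeq2 and to -0.013 and -0.011 with a minimum of 10 counts per library. Without each library NIP7 ranged from -0.046 to 0.012, RRP9 from -0.065 to 0.038, RRP1B from -0.046 to 0.047 and UTP4 from -0.068 to 0.030. Across those fits 5 to 6 members were higher and 17 to 23 lower. FBL (adjusted p = 0.032), GAR1 (0.00202), NHP2 (0.0213) and POLR1E (0.035) passed the edgeR test without DMSO replicate 2, LTV1 (0.0498) and RRP12 (0.0469) without DMSO replicate 3, RRP12 (0.0453) without DMSO replicate 1, and POLR1B (0.023), RRN3 (0.027) and LTV1 (0.00431) without NCD replicate 3. With the replicate block 6 members were higher and 18 lower, and NOP14, WDR12 and DDX21 lost their calls. The causes of these changes were not tested. With GENCODE gene ends, chosen after seeing the data, 9 of 13 members over 50 kb fell, in place of 7 of 7, and POLR1C rose. By these ends 49.7% of all tested genes of 50 to 100 kb and 82.6% of those over 100 kb fell. With 3 libraries per group the SE of a member's log2 fold change ran from 0.05 to 0.17, which limits what could be told apart from 0.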
